A study of Oryza sativa Japonica Group with 4 samples.

Results

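Cellulose synthase (CESA) genes and cellulose synthase-like (CSL) genes encode the glycosyltransferases that make cellulose and much of the remaining polysaccharide of the plant cell wall. Here they are the rice genes whose symbol or synonym in a RefSeq gene table (assembly ASM3414082v1) reads CESA and a number, or CSL, a letter and a number. The table held 35 such genes, and 29 of them, 9 CESA and 20 CSL genes, had a probe set that the array annotation assigns to 1 gene, out of 17905 genes measured in this way. By subfamily these were 4 CSLA, 5 CSLC, 4 CSLD, 2 CSLE and 4 CSLF genes and the gene CSLH1. CSLA3, CSLA4, CSLE6, CSLF3, CSLF4 and CSLF9 had no such probe set and were not analysed here.

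Seedlings of rice (Oryza sativa, japonica cultivar TNG67) were raised in hydroponic solution without ammonium nitrate until they were 17 days old. They were then placed for 30 min in solution that lacked nitrogen (−N) or that held 2.5 mM glutamate (+Glu), so that every plant of both groups had been grown without nitrogen. RNA of whole roots from 2 biological replicates of each treatment was hybridized to 4 Affymetrix rice genome arrays, to ask which root genes respond within that time to glutamate, which serves plants both as a source of nitrogen and as a signal. The number of plants in a replicate is not stated in the labels or methods, so p values measure only the spread between these samples.

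Cellulose is a beta-linked glucan spun out at the plasma membrane by rosette complexes, in which different CESA proteins act together as catalytic subunits and draw on UDP-glucose. In rice, CESA4, CESA7 and CESA9 form the set that makes cellulose of thickened secondary walls, as in xylem and fibres, and their mutants have brittle culms, whereas CESA1, CESA3 and CESA8 are counted with primary walls of growing cells. The CSL proteins are related enzymes, most of which make backbones of matrix polysaccharides. CSLA proteins are mannan synthases, CSLC proteins make the glucan backbone of xyloglucan (known from Arabidopsis), CSLD proteins act in tip growth and cell expansion, and CSLF and CSLH proteins make the mixed-linkage glucan that is typical of grasses.

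Each probe set has 1 deposited intensity for each array, not on a log scale, and differences are given as log2 of +Glu over −N, where 1 is a 2-fold difference. A gene was called changed at a difference of at least 2-fold and an unadjusted p under 0.05 in limma's moderated test, the thresholds of the study's methods, and p values were adjusted by Benjamini and Hochberg over all 17905 genes. Intensities of different probe sets depend on their probes and are not compared with each other. On the log2 scale the array medians lay between 4.27 and 4.58. The labelled tissue was checked with 6 genes known for expression in rice roots, among them the silicon channel gene LSI1 (7085 to 9275 on the 4 arrays) and the Casparian strip gene CASP1. All 6 lay above the array median on every array. That says little about the tissue, since 14836 of 17905 genes had a mean log2 above the median of all probe sets. Of 9 leaf marker genes, 8 also lay above the array median on every array. These 9 include GLO1, GLO3, GLO4 and GLO5 besides genes of photosynthesis. The brightest was CAB2R, with 8748 to 10778 on these root arrays. Only the Rubisco small subunit gene RBCS1 lay below the array median, with 4.01 to 4.91. None of the 29 CESA and CSL genes had a symbol of its own in the array annotation, where each is a placeholder, and each was found through its synonyms.

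After 30 min of glutamate no CESA or CSL gene was called. Of the 29 genes 0 were called higher, where 1.68% of all genes were (301 of 17905), and 0 were called lower, where 0.0447% were (8 of 17905). At an unadjusted p under 0.05 alone the count was also 0, against 4.18% of all genes. The adjusted p was 1 for each of the 29 genes, and 0% of all genes had an adjusted p under 0.05. Both +Glu arrays lay above both −N arrays in 1 member, CSLC3, against 14.9% of all genes, and both lay below in 1, CSLC2, against 10.1%. In the other 27 genes the groups overlapped. RNA of whole roots cannot show whether a level differs because there are more cells of a type or because there is more RNA in each.

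The 9 CESA genes had log2 differences between 0.0065 and 0.71, all above 0, with a median of 0.20. Over all genes the median was 0.026, and 55.2% of genes were above 0. The −N replicate 1 array was the lowest of the 4 arrays for each of the 9 genes, and −N replicate 2 was the highest for 7 of them. Over all 17905 genes −N replicate 2 was the highest in 8156. In each of the 9 CESA genes the replicates of −N stood farther apart than the group means, on the log2 scale. The same held for 13402 of all 17905 genes.

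Among the genes assigned to secondary walls, CESA4 (LOC4324625) had intensities of 109.1 and 449.8 in the −N replicates and of 279.3 and 336.3 in the +Glu replicates, named here and throughout in the order replicate 1, replicate 2. Both +Glu arrays thus lay inside the interval spanned by the −N arrays, which were 4.12-fold apart. Its log2 difference was 0.47 with a standard error of 0.66 (95% interval −1.19 to 2.13). CESA7 (LOC4348853) gave 124.0 and 432.2 in −N and 317.9 and 351.6 in +Glu, with the same order of arrays. The log2 difference of CESA7 was 0.53 (standard error 0.59, interval −0.95 to 2.01). CESA9 (LOC4347093) gave 51.0 and 126.8 in −N and 108.1 and 97.7 in +Glu, again with both +Glu values between the −N values. Its log2 difference was 0.35 (standard error 0.45, interval −0.78 to 1.49).

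Of the genes counted with primary walls, CESA1 (LOC4337958) had 1033 and 2390 in −N and 1412 and 2174 in +Glu. The mean intensities, 1712 ± 960 for −N against 1793 ± 539 for +Glu (SD, n = 2), lay closer together than the replicates of either group. Its log2 difference was 0.16 (interval −1.01 to 1.32). CESA3 (LOC4343049) gave 1788 and 3519 in −N and 2322 and 3559 in +Glu, a log2 difference of 0.20 (interval −0.83 to 1.22). Here +Glu replicate 2 was slightly above the higher −N array, so the groups interleaved. CESA8 (LOC4342699) gave 849 and 1971 in −N and 1119 and 1509 in +Glu, and its log2 difference of 0.0065 (interval −1.11 to 1.12) was the nearest to 0 of the CESA genes.

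The other 3 CESA genes were CESA2, CESA5 and CESA6. CESA2 (LOC4334515) had the largest log2 difference of the 29 genes, 0.71 (standard error 0.55, interval −0.67 to 2.08). Its intensities were 16.7 and 48.2 in −N and 36.7 and 58.3 in +Glu, and in −N replicate 1 it fell below the array median. CESA5 (LOC4334710) gave 368.1 and 843.9 in −N and 483.9 and 764.6 in +Glu, a log2 difference of 0.13 (interval −1.04 to 1.29). CESA6 (LOC4342850) gave 1013 and 2096 in −N and 1360 and 1977 in +Glu, a log2 difference of 0.17 (interval −0.87 to 1.21). For CESA5 and CESA6 the order of the arrays was the same, with the +Glu values inside the interval between the −N values. For none of the CESA genes did the 95% interval of the difference exclude 0, and each interval reached past 1, so that a 2-fold higher level in +Glu is not excluded for any of them, and a 2-fold lower level is not excluded for CESA1, CESA4, CESA5 and CESA8.

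**Figure D1:**
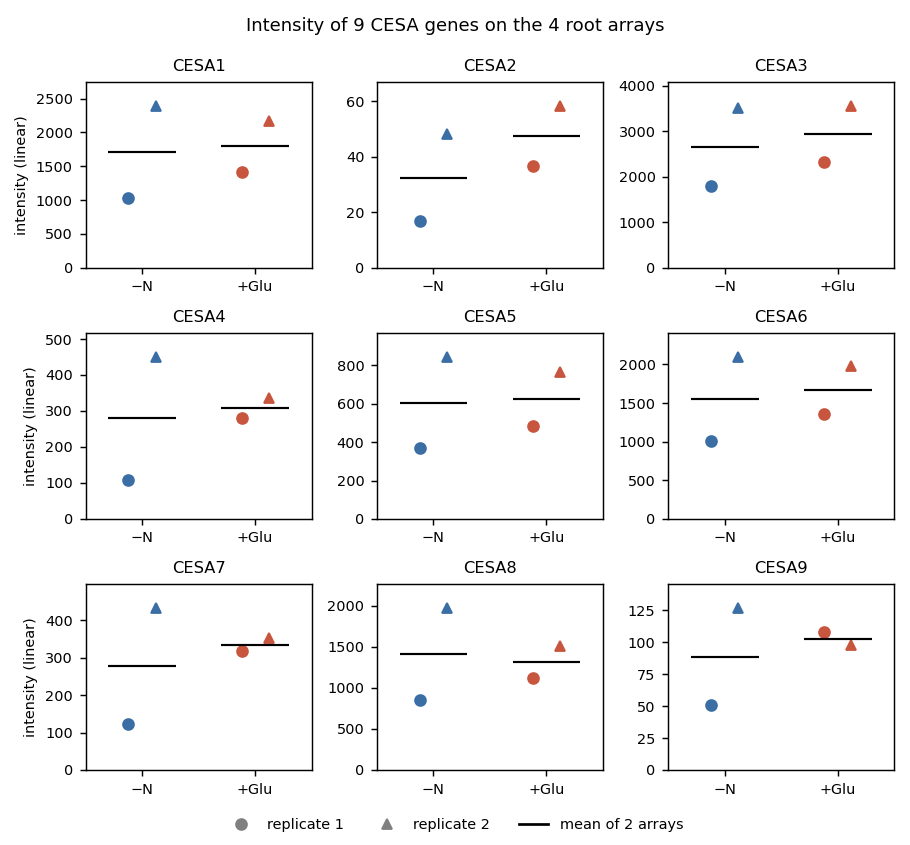
Intensity (linear scale, from 0) of the 9 CESA genes in −N and +Glu roots. Circles are replicate 1, triangles replicate 2 and bars the mean of the 2 arrays; in every panel −N replicate 1 is the lowest point.

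The gap between the −N arrays was larger in the CESA genes than in most others. For −N replicate 2 over −N replicate 1 the log2 difference had a median of 1.22 over the 9 CESA genes (0.98 to 2.04), 0.54 over the 20 CSL genes (−0.38 to 1.44) and 0.31 over all genes. In 8 of 9 CESA genes and 4 of 20 CSL genes −N replicate 2 was at least 2-fold above −N replicate 1, against 8.46% of all genes. The −N replicate 1 array was the lowest for 9 of 9 CESA genes and 10 of 20 CSL genes, against 52.6% of all genes. The +Glu replicates were closer: +Glu replicate 2 was at least 2-fold above +Glu replicate 1 in 0 CESA genes and in 1 CSL gene, CSLA5, against 1.39% of all genes, and the median log2 difference was 0.54 in the CESA genes, 0.25 in the CSL genes and 0.21 in all genes. Genes are not independent replicates, and these shares describe 4 arrays.

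For CESA4, CESA7 and CESA9 the median log2 difference between replicates was 1.80 in −N and 0.15 in +Glu. For CESA1, CESA3 and CESA8 it was 1.21 in −N and 0.62 in +Glu. These sets of 3 genes are a grouping from known function that was looked at after the values were seen, and the difference between them was not tested. With quantile normalization of the arrays the median gap in −N was 0.99 over the CESA genes and 0.068 over all genes, and with the arrays centred on their medians it was 0.97 and 0.064. In both cases −N replicate 1 stayed the lowest array for 9 of 9 CESA genes, against 35.5% and 40.1% of all genes, and −N replicate 2 was at least 2-fold above it in 4 of 9, against 3.94% and 3.84%.

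Marker genes of root functions and of leaves were set beside these values. The 6 root genes summed to 9324 and 13926 in −N and to 10365 and 12173 in +Glu. LSI1 alone gave 7085 and 9275 in −N, so the sum mostly follows LSI1. Over all genes −N replicate 1 was the lowest array in 52.6%, and −N replicate 2 was at least 2-fold above it in 8.46%. For the 6 root genes −N replicate 1 was the lowest array in 4 and −N replicate 2 was at least 2-fold higher in 3. Among these 3 was CASP1, with 53.8 and 228.5 in −N and 136.9 and 105.8 in +Glu. The 9 leaf marker genes summed to 12065 and 17381 in −N and to 15385 and 14775 in +Glu. CAB2R alone gave 8748 and 10778 in −N, so that sum mostly follows CAB2R. Among the 9 leaf marker genes −N replicate 1 was lowest in 8. In 5 of the 9 the −N arrays were at least 2-fold apart with replicate 2 higher, for example in the Rubisco small subunit gene RBCS, with 309.7 and 1193 in −N and 665.0 and 820.9 in +Glu. None of these markers was at 0. Their part in the CESA values was not tested.

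**Figure D2:**
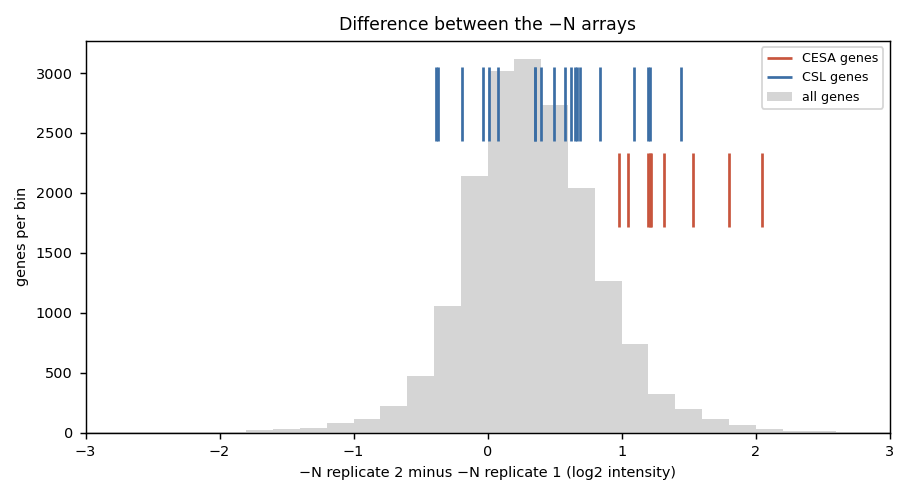
Log2 difference between −N replicate 2 and −N replicate 1 (x axis) for all 17905 genes (grey bars, genes per bin), with a red line for each CESA gene and a blue line for each CSL gene; values outside −3 to 3 are not drawn. The 9 CESA lines lie between 0.98 and 2.04, to the right of the median of all genes, 0.31.

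What the CESA genes showed in +Glu against −N changed with the arrays used. Without −N replicate 1 all 9 CESA genes were lower in +Glu, with log2 differences from −0.60 to −0.060 and a median of −0.37. Without −N replicate 2 all 9 were higher, from 0.61 to 1.49 with a median of 0.76. In that fit 8 of the 9 had an unadjusted p under 0.05 in limma, against 12.8% of all genes, and 3 had an adjusted p under 0.05, against 3.14%. Called higher were 4, CESA2 (1.47), CESA4 (1.49), CESA7 (1.43) and CESA9 (1.01), against 3.45% of all genes. The share of all genes with a positive difference moved as well, with 32.1% above 0 without −N replicate 1 and 73.4% above 0 without −N replicate 2. In both fits limma gave every gene the same standard error. Its p values there restate the size of the difference, so they are not given. Without +Glu replicate 1 all 9 CESA genes were above 0, with a median of 0.47, whereas without +Glu replicate 2 only 4 were above 0 and 5 below, with a median of −0.10.

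**Figure D3:**
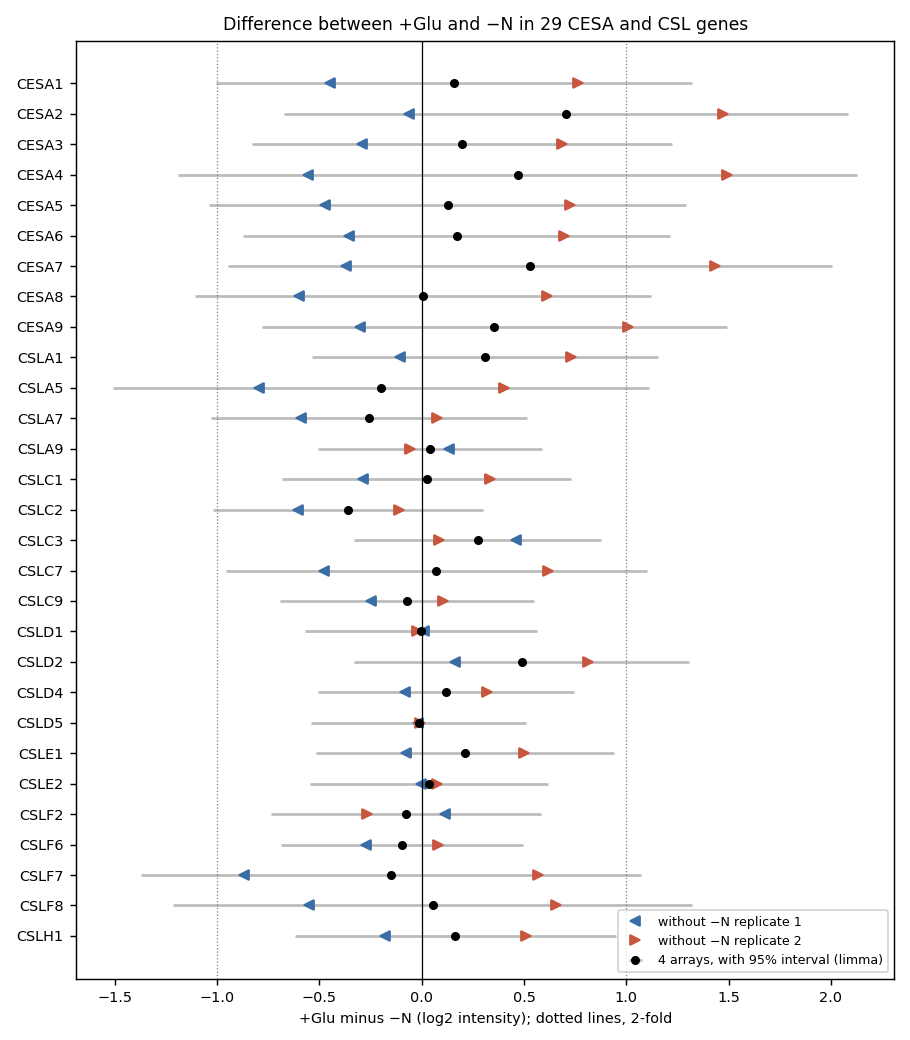
Log2 difference of +Glu minus −N for each of the 29 genes: black points with grey 95% intervals use 4 arrays, and triangles leave out −N replicate 1 (blue) or −N replicate 2 (red). Every interval holds 0, and for the 9 CESA genes the blue triangles lie below 0 and the red ones above.

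The different probe sets of a CESA gene mostly ordered the arrays alike. The 9 genes have 13 probe sets, and −N replicate 1 was lowest in 12 of them. CESA1 has another probe set with 104.6 and 399.6 in −N and 288.8 and 433.2 in +Glu, a log2 difference of 0.79, and the further probe sets of CESA3 and CESA4 gave 0.31 and 0.37. The exception was the dimmer probe set of CESA2, with 15.4 and 13.1 in −N and 12.2 and 10.0 in +Glu, a log2 difference of −0.36. That probe set lay below the median of each of the 4 arrays, and whether it was above background is not known.

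The 20 CSL genes had a median log2 difference of 0.030, near that of all genes, with 11 genes above 0 and 9 below. Their differences ran from −0.36 to 0.49. Subfamily medians were −0.079 for CSLA, 0.023 for CSLC, 0.057 for CSLD, 0.12 for CSLE and −0.087 for CSLF. For 19 of the 20 genes the −N replicates were farther apart than the group means on the log2 scale, against 13402 of all 17905 genes. The exception among the CSL genes was CSLD5, with log2 differences of 0.0098 between the −N replicates and −0.016 between the groups.

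In the CSLA subfamily the largest log2 difference was 0.31 in CSLA1 (LOC4328585), with 307.8 and 549.4 in −N and 467.9 and 555.0 in +Glu. The smallest was −0.26 in CSLA7 (LOC4343994), with 95.2 and 150.8 in −N and 89.1 and 112.8 in +Glu. In CSLA7 the lower array of +Glu was below both −N arrays, while the higher one lay between them. CSLA5 and CSLA9 had log2 differences of −0.20 and 0.039. CSLA5, singled out after its values were seen, is the only CSL gene whose replicates were over 2-fold apart in both groups, with replicate 2 higher by 2.29-fold in −N and 2.02-fold in +Glu. The names of the CSLA genes carry an uncertainty, since the gene table lists CSLA1 and CSLA9 as synonyms of LOC4328585, here called CSLA1, while LOC4341571 is also listed as CSLA9.

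The CSLC genes, of the xyloglucan backbone, held both genes whose groups did not overlap. CSLC3 (LOC4345095) gave 146.2 and 112.9 in −N and 163.3 and 147.7 in +Glu. Its lowest +Glu array was only just above its highest −N array, and the log2 difference was 0.27 (standard error 0.24, interval −0.33 to 0.88). CSLC2 (LOC4347118) gave 44.2 and 62.3 in −N and 43.7 and 38.3 in +Glu. Here −N replicate 1 and +Glu replicate 1 were nearly equal, and the log2 difference was −0.36 (standard error 0.26, interval −1.02 to 0.30). CSLC1, CSLC7 and CSLC9 had log2 differences of 0.023, 0.071 and −0.072. The probe set of CSLC7 is of a type (x_at) whose probes can match other transcripts, and its level is uncertain for that reason.

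In the CSLD subfamily, CSLD2 (LOC4339895) had the largest log2 difference of the CSL genes, 0.49 (standard error 0.33, interval −0.33 to 1.31). It gave 200.1 and 314.3 in −N and 295.1 and 420.0 in +Glu. Of its +Glu arrays 1 was above both −N arrays and the other lay between them. CSLD2, CSLC2 and CSLC3 were the 3 members whose sign stayed the same whichever array was left out, with CSLD2 between 0.16 and 0.81, CSLC2 between −0.61 and −0.11 and CSLC3 between 0.087 and 0.46. CSLD5 (LOC4340943) had the smallest difference of the subfamily, −0.016, at intensities of 4.78 and 4.82 in −N and 4.90 and 4.60 in +Glu, below the median of every array. With no detection calls in the deposited table, whether CSLD5 was above background is not known. CSLD1, which rice needs for root hair growth, had a log2 difference of −0.0045 (interval −0.57 to 0.56). For CSLD4, which mutants link to leaf width and plant height, the log2 difference was 0.12, on a probe set of the same x_at type as that of CSLC7.

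**Figure D4:**
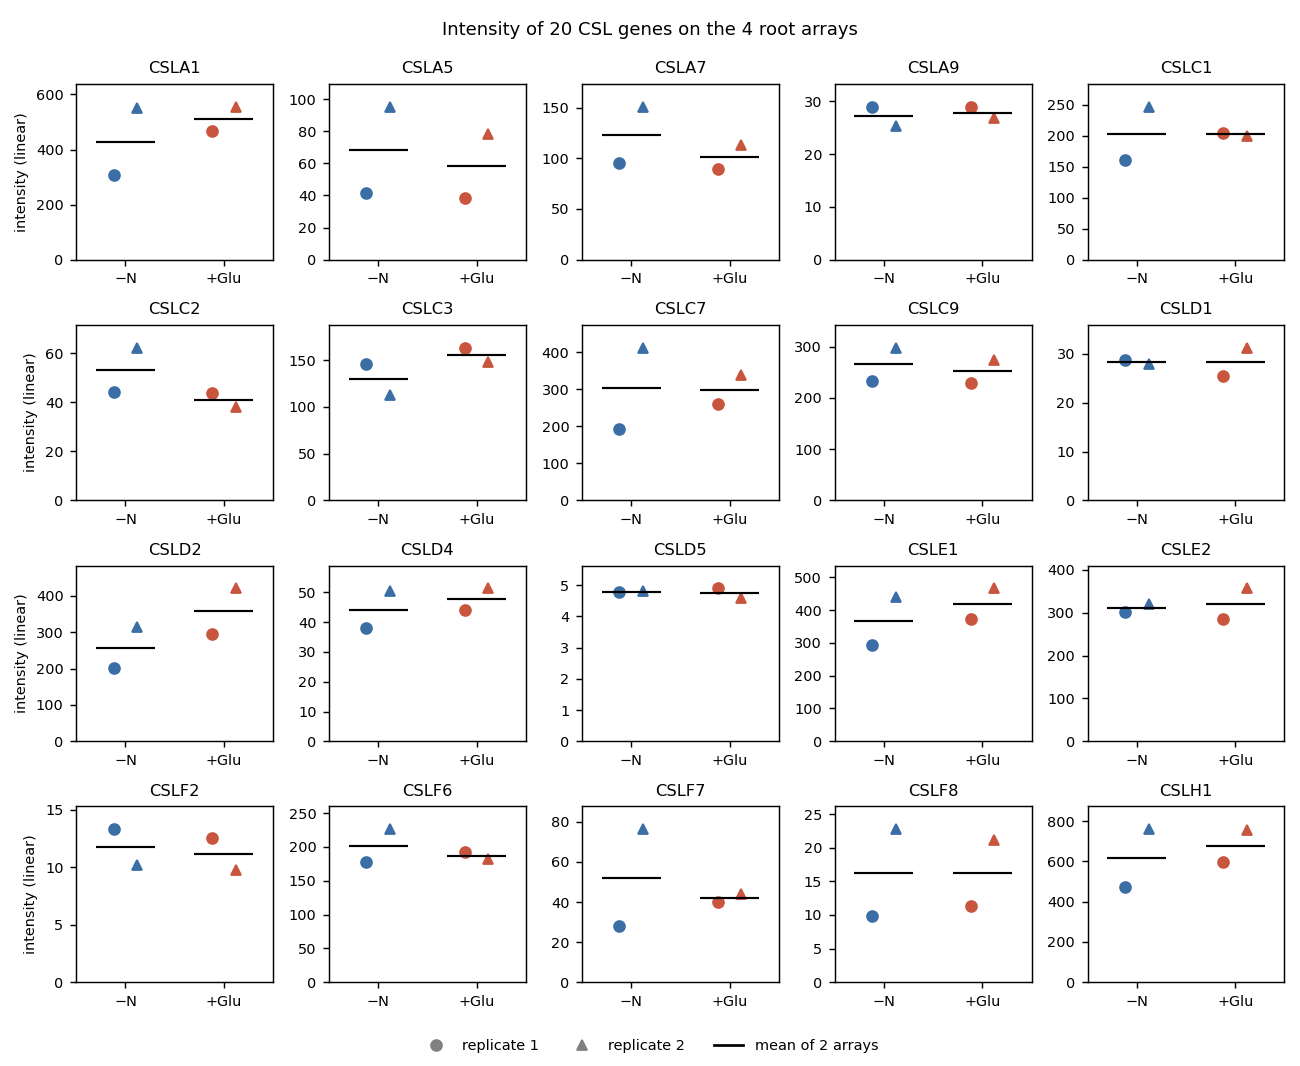
Intensity (linear scale, from 0) of the 20 CSL genes in −N and +Glu roots. Circles are replicate 1, triangles replicate 2 and bars the mean of the 2 arrays; only in CSLC2 and CSLC3 do the points of the groups not overlap.

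Among the CSLF and CSLH genes, which make mixed-linkage glucan, CSLF8 (LOC4343552) had the largest log2 difference of the CSLF genes, 0.053. It was dim, with 9.82 and 22.7 in −N and 11.3 and 21.2 in +Glu, and lay below the array median. The smallest was −0.15 in CSLF7 (LOC4348365), with 28.1 and 76.3 in −N and 39.8 and 43.8 in +Glu. Both +Glu values of CSLF7 lay between the −N values, which were 2.71-fold apart. CSLF6, the main synthase of mixed-linkage glucan in rice, had a log2 difference of −0.096 (interval −0.69 to 0.49) on its brightest probe set and −0.045 and −0.20 on the others. Those other probe sets lay at 5.13 to 6.22 and at 6.84 to 9.94, below the median of every array. Whether they were above background is not known. CSLF2 had a log2 difference of −0.078 and also lay below the array median. In the gene table CSLF9, CSLF8 and CSLF2 follow each other with no other gene between them, as do CSLF4 and CSLF3, and of these 5 genes only CSLF8 and CSLF2 were measured. Their −N replicates differed in opposite directions, with log2 differences of 1.21 for CSLF8 and −0.38 for CSLF2. CSLH1 (LOC4348359) gave 471.9 and 760.1 in −N and 596.8 and 754.6 in +Glu, with both +Glu arrays between the −N arrays and a log2 difference of 0.16.

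The CSLE genes, whose product is not assigned here, had groups that overlapped. CSLE1 (LOC4347370) gave 293.6 and 438.7 in −N and 371.2 and 465.7 in +Glu, a log2 difference of 0.21 (interval −0.52 to 0.94). CSLE2 (LOC4330583) gave 302.3 and 319.3 in −N and 284.7 and 356.3 in +Glu. The +Glu arrays of CSLE2 enclosed the −N arrays, the log2 difference was 0.036 (interval −0.54 to 0.62), and its further probe sets gave 0.034 and −0.22.

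Other genes of the cell wall were looked up by name for comparison: sucrose synthases, which can supply UDP-glucose, UDP-glucose dehydrogenases, COBRA-like proteins, which help to order cellulose, endo-glucanases, the brittle culm kinesin BC2, a xyloglucan-remodelling enzyme, and enzymes of xylan and lignin. Of 63 such genes known by name 49 were measured, and 3 of the 49 were called higher and 0 lower, where 1.68% of all genes were called higher and 0.0447% lower. The median log2 difference was 0.17, with 33 genes above 0 and 16 below. The largest was 1.57 in CAD6, a cinnamyl alcohol dehydrogenase gene of the lignin list, with 562.2 and 246.0 in −N and 1010 and 1214 in +Glu (adjusted p = 0.786). BC1L9, a COBRA-like gene, followed with 1.43, at 650.7 and 868.8 in −N and 1544 and 2643 in +Glu (adjusted p = 0.733). In both genes and in GLU5 the +Glu arrays lay above both −N arrays. This order held in 9 of the 49 genes, against 14.9% of all genes. The third was the endo-glucanase gene GLU5 with 1.00, at 81.7 and 121.0 in −N and 156.5 and 253.4 in +Glu (adjusted p = 1). CAD6 fell below 2-fold without −N replicate 2 (0.98). So did GLU5 without −N replicate 1 (0.72) or +Glu replicate 2 (0.65), with quantile normalization (0.92) or with a pseudocount of 16 (0.90). BC1L9 stayed called with quantile normalization (1.40) and with the pseudocount of 16 (1.41), and ran from 1.04 to 1.81 with 1 array left out. With a test that takes the spread from each gene's own arrays alone, in place of limma's, 0 of the 49 genes were called. That test called 105 of all genes higher, against 301 with limma, so it cannot decide whether these 3 calls hold. None of the 3 had an adjusted p under 0.05 in limma. The paper lists a COBRA-like gene as induced on the arrays and by qRT-PCR. Whether that gene is BC1L9 was not tested. The smallest differences were −0.25 in CAD8A and −0.12 in BC2.

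The wall genes are described here by list. For the 6 sucrose synthase genes −N replicate 1 was the lowest array in 6 of 6, the median log2 difference between the −N replicates was 1.07, and that between the groups was 0.29, with 5 of 6 above 0 and 0 called. The 4 COBRA-like genes were all above 0, with a median of 0.41. Among them was BC1, which rice needs for secondary wall cellulose, with 93.5 and 268.3 in −N and 201.1 and 177.2 in +Glu (log2 difference 0.25), so that both +Glu arrays lay between the −N arrays as they did for CESA4, CESA7 and CESA9. The endo-glucanase genes were above 0 in 9 of 11, with a median of 0.42, and the lignin genes in 9 of 17, with a median of 0.079. Xylan genes were above 0 in 4 of 6 and UDP-glucose dehydrogenase genes in 1 of 3. The xyloglucan endotransglucosylase/hydrolase gene XTH8 gave 715.9 and 2498 in −N and 1232 and 1694 in +Glu. Over the 49 genes −N replicate 1 was the lowest array in 36, and −N replicate 2 was at least 2-fold above it in 12. The shares over all genes were 52.6% and 8.46%.

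**Figure D5:**
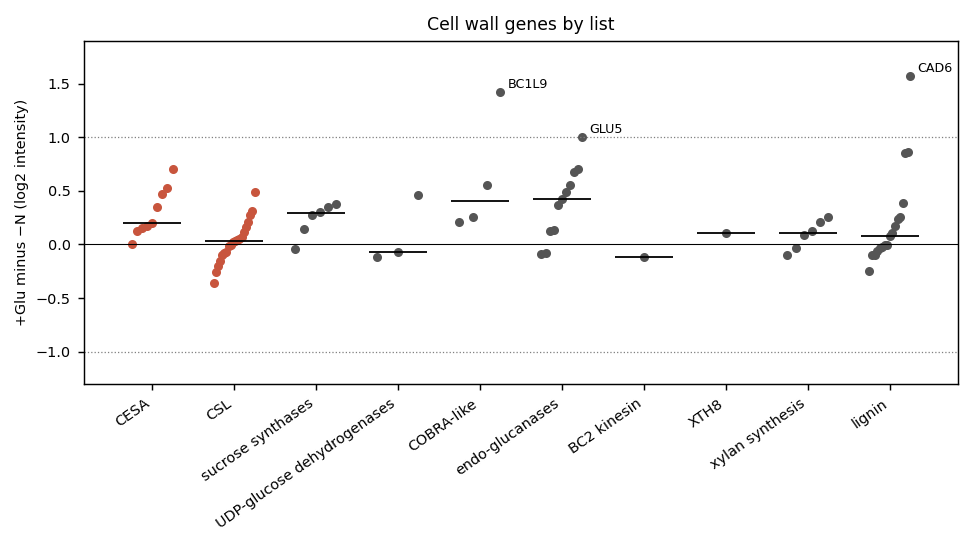
Log2 difference of +Glu minus −N (y axis) for CESA and CSL genes (red) and other cell wall genes by list (grey); each point is a gene, horizontal bars are list medians and dotted lines mark 2-fold. Only CAD6, BC1L9 and GLU5 reach the upper dotted line, and the CESA and CSL genes lie between −0.36 and 0.71.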

How the data were processed

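The deposited table holds, for each array, 1 linear intensity per probe set (3.15 to 21379). GCOS and RMA are named in the submitters' processing notes, without versions or roles. RMA usually yields log2 values, for which the test had been designed, and the array medians differ, so how the arrays were scaled is unknown. There are no detection calls, and for arrays the number of arrays limits the precision.

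Of 57381 probe sets 123 controls were left out. The array annotation gave 1 gene for 22436 of the 57258 others, several for 95 and none for 34727. Where a gene had several probe sets, the 1 with the highest mean log2 was taken, and all 17905 genes were found in the RefSeq gene table (ASM3414082v1). Log2 was taken without a pseudocount or filter, and the difference of +Glu from −N was tested with limma 3.58.1 (lmFit and eBayes) in R 4.3.3, two-sided, without a block. The script was tested on simulated data. Plots used matplotlib 3.10.9 and pandas 2.3.3 under Python 3.11.15.

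The members and lists were chosen with earlier results of these data known. Every member is named. Array values are given for all CESA genes, for the largest and smallest log2 difference of each CSL subfamily, and among the other wall genes for called genes; further genes with array values were chosen after their values were seen. Lists are described by counts and medians, with no set test. No pattern found a UDP-glucose pyrophosphorylase or a wall transcription factor by name, and 1 bHLH gene sharing the synonym BC1 was left out. The settings tried were a replicate block, each array left out, quantile normalization, median centring, a pseudocount of 16, probe sets brighter than the median, the mean of a gene's probe sets, leaving out x_at and s_at probe sets, Student's t-test, and 2-fold with no p.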

Additional observations from a re-analysis of the deposited data

How the results depend on the processing

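With all 4 arrays the count of CESA and CSL genes called higher was 0 in each setting tried, and called lower it was also 0. With 1 array left out in turn, those with an unadjusted p under 0.05 numbered 0 to 11, those with an adjusted p under 0.05 numbered 0 to 3, those with the +Glu arrays above 2 to 20 and below 2 to 17, where a lone array makes such an order more frequent by construction. The 20 members above, without −N replicate 2, are 69.0% of 29 against 57.8% of all genes, and the 17 below, without −N replicate 1, are 58.6% against 48.7%; without +Glu replicate 2 the 2 above stand against 18.9% and the 6 below against 29.7%. Medians ran from −0.37 to 0.76 for CESA and from −0.14 to 0.21 for CSL genes. Over all genes 196 to 618 were then called higher, 14 to 252 lower, and 0 to 604 had an adjusted p under 0.05. Of the other wall genes 2 to 8 were called higher and 0 to 1 lower. Quantile normalization gave 2 members with both +Glu arrays above (16.2% of all genes), 4 with both below (15.3% of all genes) and 14 genes called lower. Median centring gave 4 members above (21.6% of all genes) and 1 gene at an adjusted p under 0.05. All genes called lower numbered 3 with the pseudocount, 4 with Student's t-test and 28 at 2-fold with no p; Student's t-test called 105 higher, and 0 of the other wall genes. The causes were not tested.

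Replicates 1 and 2 are numbered alike in both groups, and nothing shows that a number marks shared plants. The differences between replicates in −N and in +Glu correlated at 0.43 over 17905 genes, at −0.43 over the 9 CESA genes and at 0.67 over the 20 CSL genes, which are not independent. With the replicate block 0 members were called, 2 had an unadjusted p under 0.05 in limma (CESA2 and CSLD2; 6.90% of 29, against 9.57% of all genes), and 15 genes were called lower.

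Single genes: quantile normalization turned the sign of CESA8 (−0.040), CSLC1 (−0.068), CSLC7 (−0.015), CSLD1 (0.018), CSLD5 (0.0071) and CSLE2 (−0.051), median centring that of CSLD1 (0.026) and CSLD5 (0.014), and the mean of probe sets that of CSLE2 (−0.051); these are 9 of 198 member values under settings other than leaving out an array. Leaving out 1 array turned the sign of 26 of the 29 members. The log2 differences then ran from −0.45 to 0.76 in CESA1, −0.060 to 1.47 in CESA2, −0.29 to 0.68 in CESA3, −0.55 to 1.49 in CESA4, −0.47 to 0.72 in CESA5, −0.35 to 0.69 in CESA6, −0.37 to 1.43 in CESA7, −0.60 to 0.61 in CESA8 and −0.30 to 1.01 in CESA9. In the CSL genes they ran from −0.11 to 0.73 in CSLA1, −0.80 to 0.40 in CSLA5, −0.59 to 0.075 in CSLA7, −0.057 to 0.13 in CSLA9, −0.29 to 0.33 in CSLC1, −0.48 to 0.62 in CSLC7, −0.25 to 0.11 in CSLC9, −0.15 to 0.14 in CSLD1, −0.082 to 0.32 in CSLD4, −0.060 to 0.029 in CSLD5, −0.077 to 0.50 in CSLE1, −0.13 to 0.20 in CSLE2, −0.27 to 0.11 in CSLF2, −0.27 to 0.080 in CSLF6, −0.87 to 0.57 in CSLF7, −0.55 to 0.66 in CSLF8 and −0.18 to 0.51 in CSLH1. Of the other wall genes the range was −0.42 to 0.18 for BC2, −0.60 to 0.098 for CAD8A, 0.65 to 1.35 for GLU5, 0.98 to 2.17 for CAD6 and 1.04 to 1.81 for BC1L9.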
